A study of Oryza sativa with 18 samples.

Results

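The comparison described here is that between NIL-Bph6 and NIL-Bph6-RNAi rice after 48 h of feeding by the brown planthopper. It rests on 6 of the 18 arrays of the series, 3 for each line, chosen by the line and time in their titles. NIL-Bph6 is labelled resistant, and its name stands for a near-isogenic line with Bph6, a gene for planthopper resistance. NIL-Bph6-RNAi is labelled susceptible, and by its name carries an RNAi construct in that line. Both groups were leaf sheath of 3-week-old plants at the four-leaf stage, grown in a chamber and fed on for 48 h. The other groups were the same lines before feeding and after 6 h of it, also with 3 arrays each. The replicates are labelled biological. The titles were used because the description and cultivar fields name other lines, such as NIL-BPH9, and other times. No plants kept for 48 h without insects were analysed here, and no source used here gives the construct's promoter or the number of transformed clones.

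The brown planthopper is a sap-sucking insect that feeds from the phloem of rice leaf sheaths. Bph6 encodes a protein found at the exocyst, the complex that tethers secretory vesicles to the plasma membrane, and exocyst-dependent secretion is known to serve wall formation and defence. Rice defence against such insects is known to involve jasmonate, which acts by removal of JAZ repressor proteins, and salicylate, which acts through NPR1-type regulators such as NH1. Growth of a leaf sheath depends on dividing and expanding cells at its base, where mitotic cyclins, kinesins and replication proteins are expressed.

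The values are log2 signals from Affymetrix rice arrays, and every difference below is NIL-Bph6 minus NIL-Bph6-RNAi on that scale, ± SE, with n = 3 arrays a line. The SE is that of the limma fit, with a spread pooled over all 18 arrays. It can be smaller than the spread of the 48 h arrays alone would give. A difference is called at a limma adjusted p under 0.05 over 32732 probe sets. Bph6 itself was not analysed here, so its silencing in NIL-Bph6-RNAi was not checked. As a check of the labels, 1 of 64 reporter and marker probe sets on the array was higher on every NIL-Bph6-RNAi array than on every NIL-Bph6 array. At 48 h it read 11.85, 12.11 and 13.15 in NIL-Bph6-RNAi against 5.21, 3.92 and 5.44 in NIL-Bph6. One array stood apart. NIL-Bph6-RNAi 48 h replicate 3 had the lowest mean correlation with arrays of other groups (r = 0.903, across probe sets), so results are also given without it. RNA quality at 48 h, read as the 3' minus the 5' signal of control genes, was 1.55, 2.47 and 2.34 in NIL-Bph6 and 1.86, 2.58 and 2.47 in NIL-Bph6-RNAi. At 0 h it was 2.41, 0.70 and 1.51 in NIL-Bph6 and mostly higher, at 3.16, 2.38 and 2.78, in NIL-Bph6-RNAi. Line and RNA quality are thus hard to tell apart at 0 h. The measured markers of leaf tissue were high in both lines, with a median over 6 genes of 13.004 to 13.58 and 13.13 to 13.76. Another leaf marker, RBCS1, was too low to be tested, at 2.39 to 5.41 on the 48 h arrays. The number of arrays limits the precision. Values near or under the overall median of 5.78 are imprecise, so the size of a difference that rests on them is uncertain.

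At 48 h, 51 of 96 cell cycle genes, 18 of 50 wall genes and all 9 measured tubulins were higher in NIL-Bph6, while 7 of 12 JAZ repressors and the NPR1-type genes NH1, NH2 and NH3 were lower. Of 32732 probe sets, 4449 (13.6%) were called, 2878 (8.79%) higher and 1571 (4.8%) lower in NIL-Bph6. The differences upward were larger, with a median size of 1.20 and 1733 at 2-fold or more, against 0.77 and 507 downward. Taken as 1 probe set for each of 16404 genes, 1881 genes (11.5%) were higher and 982 (5.99%) lower, and the median difference was 0.01. The counts of gene lists below are read against these last shares. Lists were matched by symbol, which 2450 of the 17905 genes covered by the annotation had. A count of measured members is thus not a count of a whole family. The arrays of the lines did not overlap for 5642 probe sets (17.2%) higher and 4232 (12.9%) lower in NIL-Bph6, or for 21.2% and 14.9% of the genes, against which the statements on overlap below are to be read. The probe sets of GRXC3, SWEET11, GER8, HSFB4B, ABA8OX2, RR4 and PORB may read related genes too.

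The 48 h count depended on single arrays and on scaling. It was 2585 without NIL-Bph6-RNAi replicate 3, 2641 without NIL-Bph6 replicate 3 and 2911 without NIL-Bph6 replicate 1. Of the 4449, 2453 remained called in the same direction without NIL-Bph6-RNAi replicate 3, and all 4449 kept their sign. Centring each array on its median turned the split from 2878 higher and 1571 lower to 2289 and 2584.

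**Figure D1:**
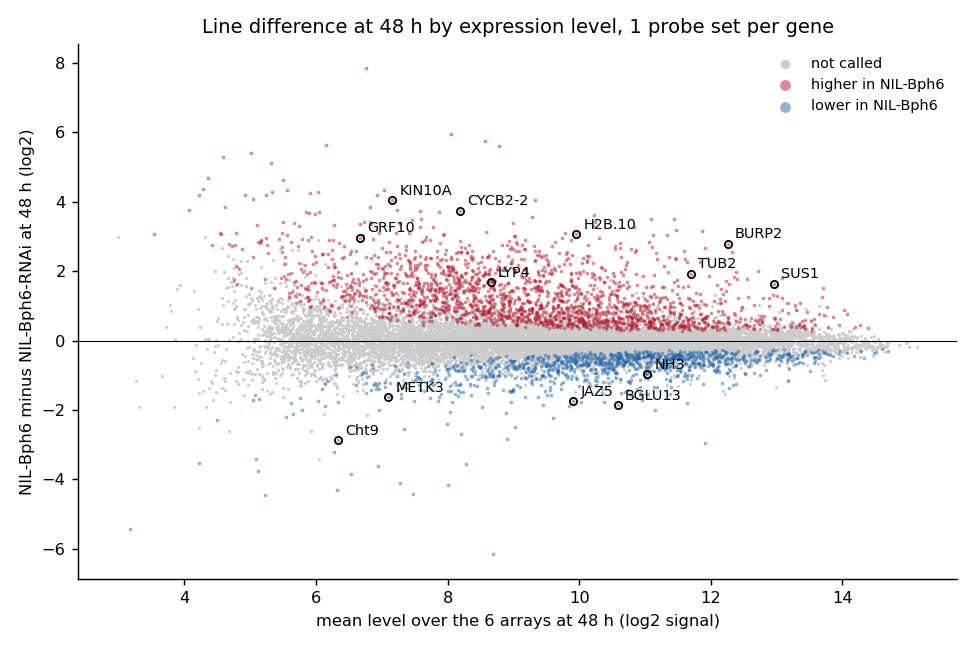
Line difference at 48 h (vertical axis, log2) against the mean level over the 6 arrays (horizontal axis, log2 signal), 1 point for each of 16404 genes. The 1881 genes called higher in NIL-Bph6 spread farther from 0 than most of the 982 called lower, and circles mark some of the named genes.

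Cell division genes made up the group most often called. Of 96 measured genes of the cell cycle and histones, 51 (53.1%) were higher in NIL-Bph6 and 1 was lower, with a median difference of 0.85. The lower one was the D-type cyclin gene CYCD5-3 (LOC4331985) at -0.58 ± 0.16 (adjusted p = 0.0268), singled out after its value was seen. By array, the median level of the list was 9.74, 9.23 and 9.49 in NIL-Bph6 and 8.27, 8.64 and 8.33 in NIL-Bph6-RNAi, and the groups did not overlap. Without NIL-Bph6-RNAi replicate 3, 40 were higher and 1 lower. With median centring there were 47 and 1.

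Genes of mitosis were among those called. CYCB1-1 (LOC4327547), a B-type cyclin that drives entry into mitosis, read 10.54, 9.95 and 10.44 in NIL-Bph6 and 7.29, 8.56 and 7.16 in NIL-Bph6-RNAi. Every NIL-Bph6 array was above every NIL-Bph6-RNAi array, of which replicate 2 was the highest. The difference was 2.64 ± 0.49 (adjusted p = 0.0025). CYCB2-2 (LOC4342121), another mitotic cyclin, differed by 3.74 ± 0.71 (adjusted p = 0.00287), and 5 of the 6 measured A- and B-type cyclins were higher. KIN10A (LOC4331094), a kinesin, which is a motor that moves along microtubules, read 9.49, 8.74 and 9.30 against 2.97, 7.36 and 5.07. The NIL-Bph6-RNAi arrays spread widely, and their highest was still below the lowest NIL-Bph6 array. KIN10A differed by 4.05 ± 0.82 (adjusted p = 0.00431). Its values of 2.97 and 5.07 lay under the overall median of 5.78, and the difference was 2.97 to 5.16 over the alternatives described below. Of 32 measured kinesins, 19 were higher and 0 lower, with a median of 1.11, and 30 had a positive difference. Without NIL-Bph6-RNAi replicate 3 there were 12 higher kinesins, without NIL-Bph6 replicate 1 also 12, and without NIL-Bph6 replicate 3 there were 11. When the fit held the compared groups alone there were 12.

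Genes of the start of the cycle and of DNA replication differed in the same direction. The D-type cyclin gene CYCD3-2 (LOC4346394), whose family couples growth signals to cell cycle entry, read 7.25, 6.08 and 6.47 against 4.97, 3.55 and 2.70, a difference of 2.86 ± 0.47 (adjusted p = 0.0013). Of 9 measured D-type cyclins, 6 were higher. All 6 measured subunits of the MCM2 to MCM7 helicase, which unwinds DNA at replication origins, were higher, by 1.53 to 2.23. They stayed called without any 1 of the 6 arrays at 48 h and under both scalings. ORC1 (LOC4340349), the largest subunit of the complex that marks origins, differed by 2.81 ± 0.64 (adjusted p = 0.0084) and was 1 of 3 higher among 5 measured subunits. Among the 7 measured genes of replication protein A, which covers single-stranded DNA, 3 were higher and 0 lower.

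The histone gene H2B.10 (LOC4324495), which encodes a protein that packs newly made DNA, read 12.07, 11.77 and 10.60 in NIL-Bph6 and 8.38, 8.27 and 8.62 in NIL-Bph6-RNAi at 48 h, a difference of 3.06 ± 0.35 (adjusted p = 8.91e-05). It was already higher at 6 h by 2.35 (adjusted p = 0.00177), the single call of the cell cycle list at that time. Of 5 measured H2B genes, 3 were higher at 48 h and all 5 had a positive difference. For cyclin-dependent kinases, the catalytic partners of cyclins, 3 of 11 were higher and 0 lower, with a median of 0.11.

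Growth-regulating factors, transcription factors known to promote cell proliferation in young leaves, had 5 higher of 10 measured. GRF10 (LOC4330314) read 8.43, 8.0 and 8.05 in NIL-Bph6 and 5.22, 5.43 and 4.92 in NIL-Bph6-RNAi, a difference of 2.97 ± 0.36 (adjusted p = 0.00015). GRF6 (LOC4333990) differed by 2.89 ± 0.38, GRF7 (LOC9268363) by 2.37 ± 0.56 and GRF4 (LOC4330436) by 2.06 ± 0.32. All 10 had a positive difference under both scalings. The call of GRF7 ended in 2 alternatives, with an adjusted p of at most 0.0535.

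**Figure D2:**
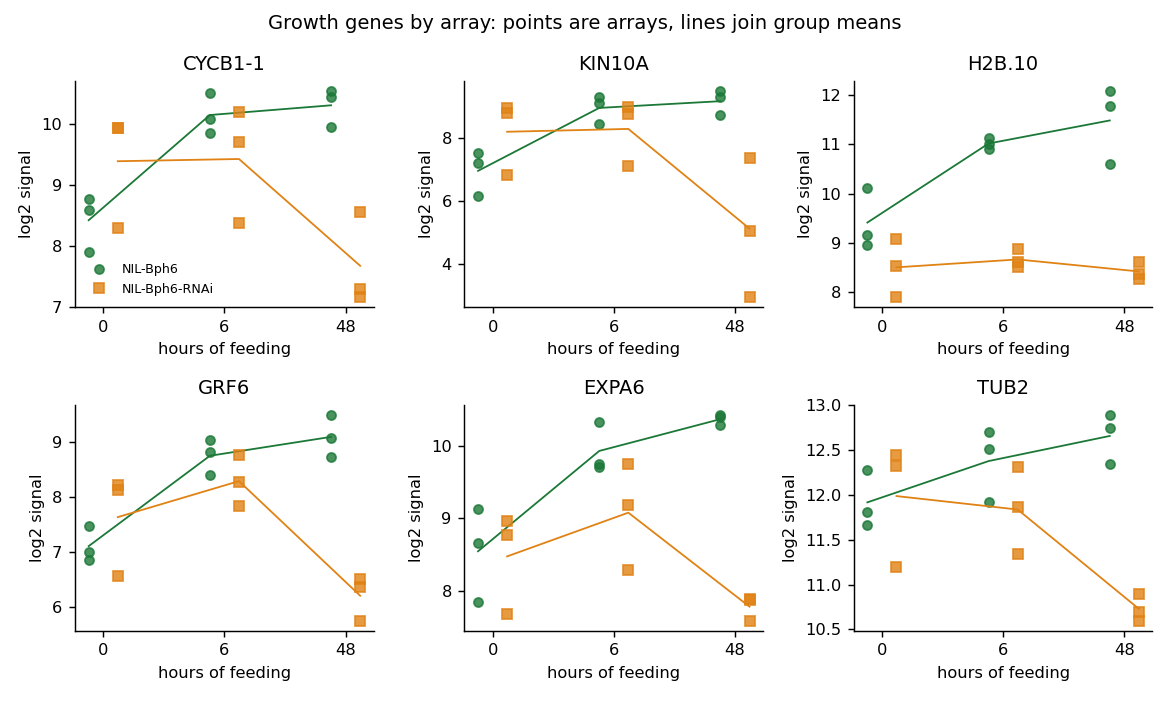
Log2 signal (vertical axis) of CYCB1-1, KIN10A, H2B.10, GRF6, EXPA6 and TUB2 on each array at 0, 6 and 48 h of feeding (horizontal axis, evenly spaced categories), with lines through group means. At 48 h the 3 NIL-Bph6 arrays lie above the 3 NIL-Bph6-RNAi arrays in each panel, and at 0 h the lines overlap.

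These growth-regulating factors were the called members of a list of shoot meristem markers, of which 5 of 12 measured were higher and 0 lower. The summed linear signal of that list was 6155 to 7516 in NIL-Bph6 and 4139 to 4894 in NIL-Bph6-RNAi. The markers that define the meristem itself were low. OSH1 lay between 0.0 and 5.09 on the 48 h arrays, OSH71 between 3.88 and 5.88 and WOX4 between 1.20 and 2.75, all under the filter. OSH43 differed by 1.02 ± 0.85 and WOX9 by 0.14 ± 0.49, neither called. Fewer dividing cells and less RNA per such cell cannot be told apart in whole leaf sheath, here or in any result below. The part of these markers in the cell division, wall and tubulin results was not tested.

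Markers of other tissues were also examined. None of 6 measured leaf markers was called, and their summed linear signal was 73055 to 82963 in NIL-Bph6 and 77290 to 89795 in NIL-Bph6-RNAi. Of the vascular markers 1 of 7 was called, the sucrose exporter gene SWEET11. The summed signal of the vascular list was 12218 to 14331 in NIL-Bph6 and 6577 to 12075 in NIL-Bph6-RNAi, the lowest being NIL-Bph6-RNAi replicate 3. None of 4 seed storage, 3 pollen and flower and 2 root markers was called. Their summed signals were 3930 to 4839 against 4693 to 5155, 468 to 667 against 483 to 594, and 385 to 435 against 433 to 623. At least 1 array at 48 h read 0 for the seed genes RAG1 and GLUA-3 and for the root gene Lsi2. The member with the lowest p in each list was PORB (LOC4349004) at 0.32 ± 0.11, GLB1 (LOC4337720) at -0.21 ± 0.12, MADS58 (LOC4338067) at 0.21 ± 0.30 and IRT1 (LOC4333669) at -0.46 ± 0.20.

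Among wall genes, nearly all calls were upward in NIL-Bph6. Of 50 measured genes for cellulose synthesis and wall loosening, 18 (36.0%) were higher and 1 lower, with a median difference of 0.55. EXPA6 (LOC4332763), an expansin, which is a protein that loosens walls as cells expand, read 10.28, 10.42 and 10.39 in NIL-Bph6 and 7.89, 7.88 and 7.60 in NIL-Bph6-RNAi. Both lines were tight, and the difference was 2.57 ± 0.37 (adjusted p = 0.000589). EXPB17 (LOC4336479), a beta-expansin, differed by 2.62 ± 0.59 (adjusted p = 0.00755). BC1L2 (LOC4333115), of the COBRA-like family known for roles in wall structure, differed by 2.13 ± 0.60 and EXPA29 (LOC4342086) by 3.76 ± 1.11. The last was low in both lines, at 6.59, 5.74 and 5.50 against 1.71, 0.29 and 4.54.

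By family, 10 of 20 expansins were higher and 1 lower, namely EXLA1 (LOC4331516) at -1.17 ± 0.23 (adjusted p = 0.00317), which was singled out after its value was seen. Of 9 cellulose synthases 3 were higher, and of 16 cellulose synthase-like genes 4. The number of higher expansins was 4 without NIL-Bph6 replicate 1 or 3, 6 without NIL-Bph6-RNAi replicate 2 or 3, and 3 when the fit held the compared groups alone. Higher cellulose synthases numbered 0 without NIL-Bph6-RNAi replicate 3 and 1 without NIL-Bph6 replicate 1 or 3. Higher cellulose synthase-like genes numbered 1 without NIL-Bph6 replicate 1 and 2 without either line's replicate 3. By array, the median of the wall list was 9.78, 9.95 and 9.86 in NIL-Bph6 and 9.72, 9.41 and 8.99 in NIL-Bph6-RNAi, without overlap. The number of higher wall genes was 6 without NIL-Bph6 replicate 1, 7 without NIL-Bph6 replicate 3 and 8 without NIL-Bph6-RNAi replicate 3. The calls of EXPA29 and BC1L2 ended in some alternatives, with adjusted p of at most 0.119 and 0.0967.

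Other large differences upward belonged to GLU12 (LOC4347660), an endoglucanase gene, at 3.40 ± 0.83 (adjusted p = 0.0126), and BGLU8 (LOC4333842), a beta-glucosidase gene, at 2.73 ± 0.40 (adjusted p = 0.000608). A second GLU12 probe set was not called, and the call itself ended in 4 alternatives, with an adjusted p of at most 0.0607. In NIL-Bph6-RNAi the called GLU12 probe set read 2.56, 6.28 and 3.05, the first and last under the overall median of 5.78. C3H23 (LOC4332723), a zinc finger gene, differed by 4.33 ± 0.76 (adjusted p = 0.00191), the largest difference among the named genes, from 8.23, 7.35 and 7.62 against 2.04, 5.93 and 2.23. Its values of 2.04 and 2.23 lay under that median, and the difference was 3.21 to 5.60 over the alternatives. BURP2 (LOC4338119), of the plant-specific BURP family, read 13.10, 14.14 and 13.73 against 11.56, 11.85 and 9.18, a difference of 2.79 ± 0.49 (adjusted p = 0.00191). GRXC3 (LOC4329462), a glutaredoxin gene, differed by 3.09 ± 0.55 (adjusted p = 0.00203). Its NIL-Bph6-RNAi values of 2.95, 3.81 and 5.05 all lay under the overall median. The peroxidase gene PRX74 (LOC4339222) differed by 1.96 ± 0.50 (adjusted p = 0.0163), and its call ended in 2 alternatives (adjusted p at most 0.088).

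Tubulins, the subunits of microtubules, are often taken as reference genes and were all higher in NIL-Bph6. TUB2 (LOC4331315) read 12.89, 12.34 and 12.74 in NIL-Bph6 and 10.60, 10.90 and 10.69 in NIL-Bph6-RNAi, a difference of 1.93 ± 0.31 (adjusted p = 0.00103). TUB1 (LOC4326917) differed by 1.32 ± 0.23, TUB4 (LOC4327550) by 1.22 ± 0.25 and TUB6 (LOC4338790) by 1.19 ± 0.35. All 9 measured tubulins were called, and all 9 kept a positive difference under both scalings, although median centring left 5 calls. Leaving out 1 array left 3 calls at the fewest, without NIL-Bph6 replicate 3, then 4 without NIL-Bph6-RNAi replicate 3 and 5 without NIL-Bph6 replicate 2. The call of TUB6 was among those that ended, with an adjusted p of at most 0.143. The 13 reference genes other than tubulins had a median of 0.06, which turned to -0.03 with median centring, and 1 was higher and 1 lower.

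Genes of the growth hormones showed calls in both directions. Of 53 auxin genes, 12 (22.6%) were higher and 3 lower, with a median of 0.17. IAA14 (LOC4334431), an AUX/IAA repressor, read 9.69, 9.22 and 9.72 against 7.81, 7.67 and 6.00, a difference of 2.38 ± 0.43 (adjusted p = 0.00213). IAA19 (LOC4339588) was higher by 1.69 ± 0.44, and GH3.9 (LOC4343704), of the family that conjugates auxin to amino acids, by 1.78 ± 0.50. Their calls ended in some alternatives, with adjusted p of at most 0.0667 and 0.133. IAA19 also differed by 1.27 at 0 h and 1.80 at 6 h, neither called (adjusted p = 0.184 and 0.0687). IAA6 (LOC4326541) was lower, at 9.86, 9.99 and 10.66 against 11.83, 11.90 and 11.35, a difference of -1.52 ± 0.29 (adjusted p = 0.00286). AUX/IAA genes were thus called both ways, with 4 of 24 higher and 1 lower. The number of higher auxin genes was 6 without NIL-Bph6 replicate 3 and 7 without NIL-Bph6-RNAi replicate 3.

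Among 28 cytokinin genes, 5 were higher and 4 lower. The phosphotransfer protein gene PHP5 (LOC107278650) was higher by 1.49 ± 0.30 (adjusted p = 0.00405), and the response regulators RR6 (LOC4337372) and RR4 (LOC4325747) by 1.11 ± 0.27 and 0.87 ± 0.16. LOG (LOC4324445), the enzyme that releases active cytokinin, was lower at -1.07 ± 0.23 (adjusted p = 0.00634). Of 11 gibberellin genes, the DELLA repressor SLR1 (LOC4333860) was higher by 0.61 ± 0.16, while the gibberellin receptor GID1 (LOC4338764), at -0.72 ± 0.12, and the synthesis gene GA20OX3, at -0.63 ± 0.18, were lower. Some alternatives ended the calls of SLR1 (adjusted p at most 0.0818), GA20OX3 (0.112) and RR6 (0.0558).

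**Figure D3:**
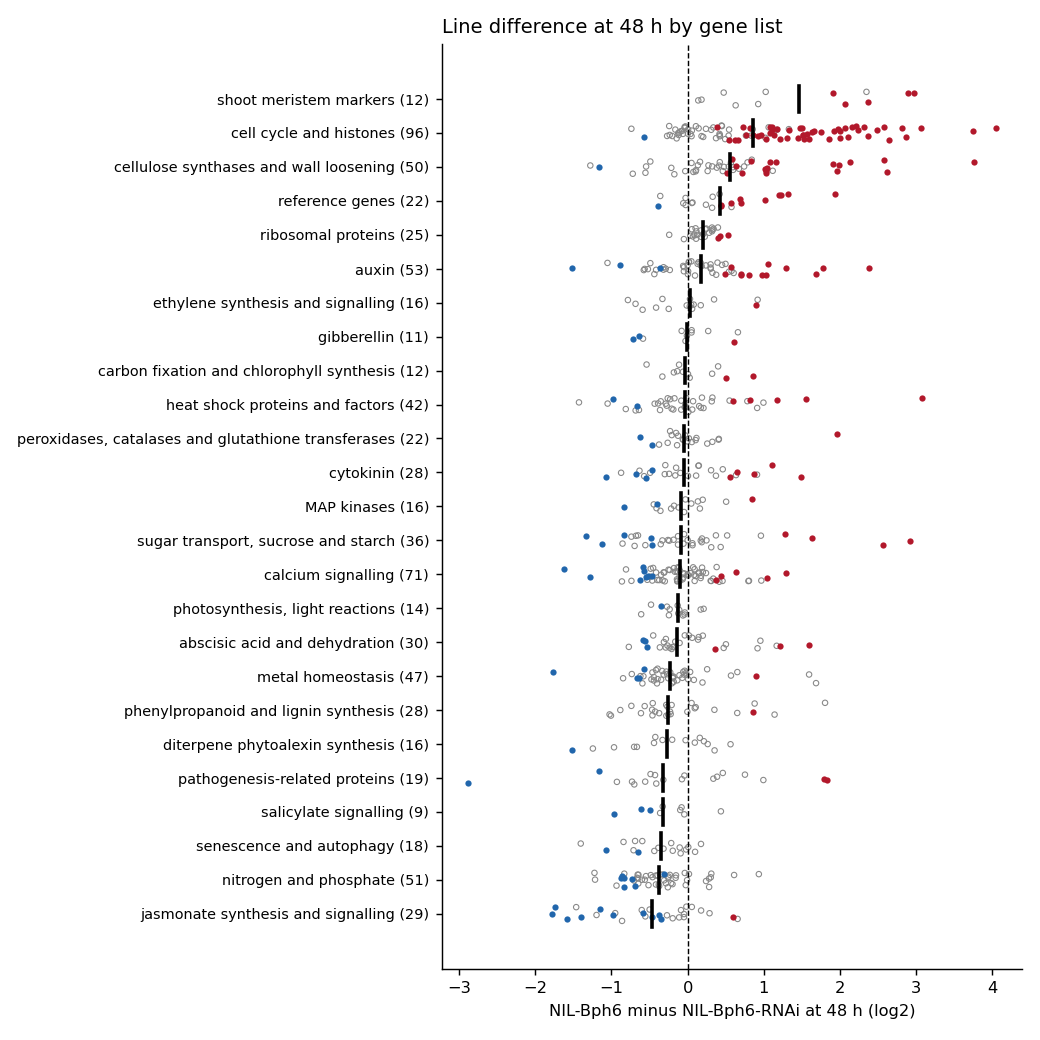
Line difference at 48 h (horizontal axis, log2) of each measured member of the gene lists with at least 9 measured members, the number in brackets. Filled points are called (red higher, blue lower in NIL-Bph6), open points are not, black bars are list medians and the dashed line is the median of all genes tested, 0.01. The cell cycle list has a median of 0.85 and the jasmonate list one of -0.47.

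Jasmonate genes were called mostly in the other direction. Of 29 measured genes, 10 (34.5%) were lower in NIL-Bph6 and 1 was higher, with a median of -0.47. JAZ5 (LOC4335698), a JAZ repressor, which binds and silences jasmonate-responsive transcription factors, read 8.71, 9.77 and 8.64 in NIL-Bph6 and 11.45, 10.49 and 10.42 in NIL-Bph6-RNAi. Every NIL-Bph6 array was lower, with replicate 2 the closest to the other line, and the difference was -1.75 ± 0.29 (adjusted p = 0.00147). Of 12 measured JAZ genes 7 were lower and 0 higher, and none had a positive difference under either scaling. The number of lower JAZ genes was 3 without NIL-Bph6 replicate 1, when 1 member turned positive, 4 without NIL-Bph6 replicate 3 or NIL-Bph6-RNAi replicate 1, and 11 without NIL-Bph6 replicate 2. It was 2 when the fit held the compared groups alone. JAZ genes are themselves known to be induced by jasmonate.

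The transcription factor gene JAMYB (LOC4351131), known to be induced by jasmonate in rice, read 9.32, 9.99 and 9.17 against 11.96, 11.20 and 10.66. Its groups did not overlap, and the difference was -1.78 ± 0.33 (adjusted p = 0.00256). AOS2 (LOC4332121), the allene oxide synthase of jasmonate synthesis, read 9.86, 10.62 and 10.07 against 11.70, 11.38 and 11.68. All 3 NIL-Bph6-RNAi arrays lay within a narrow range above it, and the difference was -1.40 ± 0.19 (adjusted p = 0.000346). CM-LOX1 (LOC4345993), a chloroplast lipoxygenase gene, differed by -1.58 ± 0.46 (adjusted p = 0.0313), a call that ended in 6 alternatives (adjusted p at most 0.139). NINJA1, an adaptor through which JAZ proteins recruit corepressors, was the single higher member, at 0.60 ± 0.09 (adjusted p = 0.000548), picked out after its value was seen. Its difference at 0 h was 0.52.

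The jasmonate count rested on few arrays. The number of lower genes was 5 without NIL-Bph6 replicate 1, 16 without NIL-Bph6 replicate 2, and 6 without NIL-Bph6 replicate 3 or NIL-Bph6-RNAi replicate 1. It was 4 when the fit held the compared groups alone and 9 without NIL-Bph6-RNAi replicate 3. By array, the list median was 11.19, 11.79 and 11.60 in NIL-Bph6 and 12.10, 11.66 and 11.72 in NIL-Bph6-RNAi, so the groups overlapped at this level.

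The NPR1-type regulators of salicylate signalling were lower as well. NH3 (LOC4333666) read 10.29, 10.63 and 10.73 in NIL-Bph6 and 11.60, 11.56 and 11.39 in NIL-Bph6-RNAi, a difference of -0.96 ± 0.17 (adjusted p = 0.00215), and 3 of its 4 probe sets were called the same way. At 6 h its difference was 0.85 (adjusted p = 0.0247), of the opposite sign. NH1 (LOC4327315), the rice counterpart of NPR1, differed by -0.61 ± 0.15 (adjusted p = 0.0155) and NH2 (LOC4325503) by -0.49 ± 0.12 (adjusted p = 0.0112). In all, 3 of 9 salicylate genes were lower and 0 higher. A single lower gene was left, 1 of 9, when either line's replicate 3 was dropped or when the fit held the compared groups alone. The highest adjusted p over alternatives was 0.0791 for NH1 and 0.0649 for NH2. None of the 6 measured WRKY factors that were matched by symbol was called, although their median was -0.38. Among them WRKY62 (LOC4347070) had the lowest p at -1.01 ± 0.35 (adjusted p = 0.0679). Other WRKY genes were not examined.

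**Figure D4:**
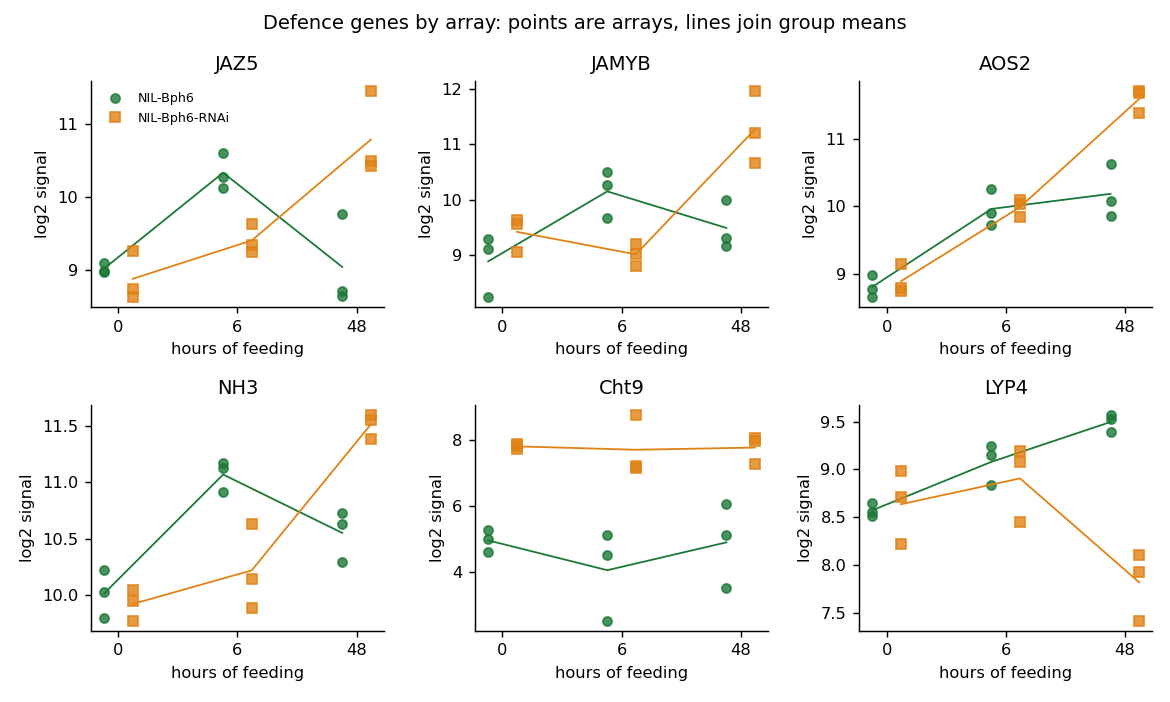
Log2 signal (vertical axis) of JAZ5, JAMYB, AOS2, NH3, Cht9 and LYP4 on each array at 0, 6 and 48 h of feeding (horizontal axis, evenly spaced categories), with lines through group means. At 48 h the first 5 lie lower in NIL-Bph6 and LYP4 lies higher, and Cht9 is also lower at 0 h and 6 h by the test.

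Other defence genes were split. LYP4 (LOC4347230), a LysM receptor that binds chitin and peptidoglycan, read 9.53, 9.39 and 9.57 against 7.93, 8.11 and 7.42, a difference of 1.67 ± 0.22 (adjusted p = 0.00032). CERK1 (LOC4346173), the receptor kinase that acts with such proteins in chitin sensing, was lower at -0.67 ± 0.12 (adjusted p = 0.00203), as it was at 0 h (-0.66, adjusted p = 0.00722). Of 19 pathogenesis-related genes, 2 (10.5%) were higher and 2 (10.5%) lower, the former close to the share of all genes. The germin-like genes GER4 (LOC4327911) and GER8 (LOC4325743) were higher by 1.83 ± 0.27 and 1.78 ± 0.34, and the 3 probe sets of GER8 were all called. The chitinase gene Cht9 (LOC4338719) read 3.50, 6.06 and 5.10 against 8.05, 7.98 and 7.28, a difference of -2.88 ± 0.65 (adjusted p = 0.00775). It differed by nearly as much at 0 h (-2.86, adjusted p = 0.0362). GLP2 (LOC4344846), another germin-like gene, differed by -1.17 ± 0.35, a call that ended in 7 alternatives (adjusted p at most 0.181).

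KSL5 (LOC4329728), a diterpene cyclase gene, was the single call among 16 phytoalexin genes (6.2%, close to the share of all genes), at -1.52 ± 0.45 (adjusted p = 0.0346). It was low, at 4.76, 7.04 and 6.18 against 7.12, 7.59 and 7.83, and its call ended in 7 alternatives (adjusted p at most 0.164). Phytocystatins, inhibitors of cysteine proteases such as those of insect guts, had 2 lower of 7, OC-III (LOC4338771) at -0.33 ± 0.07 and OC-VIII (LOC4333170) at -0.58 ± 0.16, the latter with an adjusted p of up to 0.105 over the alternatives. OC-III was also lower at 6 h (-0.34, adjusted p = 0.0287). Among 16 ethylene genes, ACO1 (LOC4347225), the last enzyme of ethylene synthesis, was the single call, at 0.89 ± 0.23, with an adjusted p of up to 0.0974. None of 5 cold-response DREB1 genes was called, the lowest p being that of ERF24 (LOC4347620) at -0.78 ± 0.59. Among genes matched by symbol, the exocyst was represented by SEC10 (LOC4351857) alone. SEC10 read 10.97, 10.77 and 10.93 against 10.35, 10.74 and 10.57, a difference of 0.34 ± 0.13 (adjusted p = 0.11).

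The named genes with the largest differences downward included 2 for beta-glucosidases, which release sugars and aglycones from glucosides, while BGLU8 of the same kind was higher. BGLU13 (LOC4336146) read 9.92, 9.90 and 9.15 against 11.56, 11.04 and 11.95, a difference of -1.86 ± 0.29 (adjusted p = 0.000886), while a second probe set of it was not called. BGLU13 was also lower at 6 h (-1.92, adjusted p = 0.00181). BGLU19 (LOC4338556) differed by -1.67 ± 0.33 (adjusted p = 0.00332). The S-adenosylmethionine synthetase gene METK3 (LOC4325163), whose product donates methyl groups and feeds ethylene synthesis, differed by -1.64 ± 0.43 (adjusted p = 0.0178) and likewise at 6 h (-1.96, adjusted p = 0.0381). The metallothionein gene MT4C (LOC4352582) differed by -1.76 ± 0.46 (adjusted p = 0.018) and the zinc finger gene C3H54 (LOC4344566) by -1.43 ± 0.41 (adjusted p = 0.028). Alternatives ended the calls of METK3, MT4C and C3H54, at adjusted p of at most 0.0919, 0.0962 and 0.102.

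Calcium sensors and kinases were called both ways, 5 of 71 (7.0%) higher, under the share of all genes, and 8 (11.3%) lower. With median centring there were 2 and 13. Without 1 array the number higher was 2 to 4, at 2 without either line's replicate 3 and 3 without NIL-Bph6 replicate 1 or 2 or NIL-Bph6-RNAi replicate 1. The number lower was 4 without NIL-Bph6-RNAi replicate 2 and 5 without NIL-Bph6 replicate 1. The calcium-dependent kinase gene CPK3 (LOC4327438) was higher by 1.04 ± 0.23 (adjusted p = 0.00755) and CIPK6 (LOC4345687), a kinase activated by calcineurin B-like sensors, by 1.28 ± 0.41. CIPK5 (LOC4327093) was lower at -1.62 ± 0.49 and CPK21 (LOC4346187) at -1.28 ± 0.39. The last 3 calls ended in some alternatives, with adjusted p of at most 0.206, 0.159 and 0.15. Of 16 MAP kinases, MPK17 (LOC4339697) was higher by 0.84 ± 0.27, and MPK7 (LOC4339633) and MPK14 (LOC9267958) were lower at -0.83 ± 0.26 and -0.40 ± 0.11. Their adjusted p reached 0.213, 0.222 and 0.0874. Among 30 genes of abscisic acid and dehydration, 3 were higher and 3 lower. The dehydrin RAB16B (LOC4350453) was higher by 1.59 ± 0.44 and ABA8OX2 (LOC4345810), which degrades abscisic acid, by 1.21 ± 0.24 (adjusted p = 0.00386). The receptor PYL11 (LOC4338104) was lower at -0.58 ± 0.10 (adjusted p = 0.00149) and the kinase SAPK1 (LOC4333017) at -0.57 ± 0.14. RAB16B and SAPK1 reached adjusted p of 0.104 and 0.0547.

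Of 36 genes for sugar transport, sucrose and starch, 4 (11.1%) were higher and 5 (13.9%) lower, the former close to the share of all genes. SWEET11 (LOC4346153), a sucrose exporter, read 11.22, 10.99 and 11.08 in NIL-Bph6 and 8.44, 9.43 and 7.74 in NIL-Bph6-RNAi, a difference of 2.56 ± 0.41 (adjusted p = 0.00114). CIN2 (LOC4335790), a cell wall invertase, differed by 2.91 ± 0.75 (adjusted p = 0.0165), and SUS1 (LOC4333062), a sucrose synthase, by 1.64 ± 0.33 (adjusted p = 0.0041). CIN2 read 7.16, 6.44 and 7.06 against 4.97, 5.35 and 1.61. The lowest array for CIN2, SUS1 and SWEET11 alike was NIL-Bph6-RNAi replicate 3. SWEET16 (LOC4332795) was lower at -1.33 ± 0.30 (adjusted p = 0.00818), and was so at 0 h (-1.99) and 6 h (-1.91) too. The number of higher genes was 2 without NIL-Bph6 replicate 1 or either line's replicate 3, and 1 when the fit held the compared groups alone. With median centring 4 were higher and 9 lower. Alternatives ended the calls of CIN2 and SUS1, at adjusted p of at most 0.101 and 0.0518.

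Among nutrient genes, the calls were all downward. Of 51 nitrogen, phosphate and potassium genes, 7 (13.7%) were lower and 0 higher, with a median of -0.38. The glutamate dehydrogenase gene GDH2 (LOC4336554) read 10.42, 10.82 and 10.85 against 11.95, 11.54 and 11.24, a difference of -0.88 ± 0.21 (adjusted p = 0.0112), and its 3 probe sets were all called. NIA1 (LOC4345795), a nitrate reductase gene, differed by -0.86 ± 0.22, although its second probe set had the opposite sign and was not called. The potassium transporters HAK7 (LOC4344235) and HAK16 (LOC4333298) differed by -0.84 ± 0.17 and -0.83 ± 0.21. Without NIL-Bph6 replicate 1, NIL-Bph6 replicate 3 or NIL-Bph6-RNAi replicate 3 there were 3 lower genes. GDH2, NIA1 and HAK16 reached adjusted p of 0.0575, 0.084 and 0.0716.

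Of 47 genes of metal homeostasis, 4 were lower and 1 higher. The higher one was the manganese and cadmium transporter NRAMP5 (LOC4342859) at 0.89 ± 0.24, and lower were YSL16 (LOC4336546), which carries metals chelated by nicotianamine, at -0.64 ± 0.15, and the zinc transporter ZIP8 (LOC4342782) at -0.67 ± 0.21. NRAMP5 and ZIP8 reached adjusted p of 0.0881 and 0.224. Of 18 genes of senescence and autophagy 2 were lower and 0 higher: NYC1 (LOC4327178), which degrades chlorophyll b, at -0.66 ± 0.14 (adjusted p = 0.00577), and the stress-responsive factor NAC6 (LOC4325006) at -1.07 ± 0.21 (adjusted p = 0.00307). A second NAC6 probe set had the opposite sign and was not called the same way.

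Of 14 light reaction genes, petC (LOC4343570) alone (7.1%, close to the share of all genes) was called, at -0.35 ± 0.10, and the median was -0.13. For 7 of the 14 all NIL-Bph6 arrays lay below all NIL-Bph6-RNAi arrays, against 14.9% of all genes, and with median centring 4 were lower. No light reaction gene was called without NIL-Bph6 replicate 1 or 2 or NIL-Bph6-RNAi replicate 2 or 3, and 2 were without NIL-Bph6 replicate 3. Of 12 genes of carbon fixation and chlorophyll synthesis PORA (LOC4337415) was higher by 0.86 ± 0.16 (adjusted p = 0.00308) and HEMD (LOC4331869) by 0.51 ± 0.16. The calls of petC and HEMD ended in 10 alternatives each, with adjusted p of at most 0.14 and 0.169. Of 25 ribosomal protein genes 3 were higher, RPS26 (LOC4327570) by 0.52 ± 0.13, RPL5 (LOC4325100) by 0.42 ± 0.12 and RPL30 (LOC4324441) by 0.39 ± 0.11. Their adjusted p reached 0.0595, 0.0866 and 0.114, the last 2 with median centring. Of 28 lignin and phenylpropanoid genes the laccase LAC3 (LOC4327522) alone was called, at 0.86 ± 0.26, and it lost that call in 11 alternatives (adjusted p at most 0.143).

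Among 42 heat shock genes, 5 (11.9%) were higher and 2 (4.8%) lower, close to the shares of all genes. The heat shock factor HSFB2B (LOC4346229) was higher by 3.08 ± 0.63 (adjusted p = 0.00458) but low, at 4.56, 5.72 and 4.95 against 2.50, 1.98 and 1.53. HSFB4B (LOC4344063) was higher by 1.56 ± 0.30 and the small heat shock protein HSP16.9B (LOC4325698) by 1.17 ± 0.22, while HSP22.3 (LOC4339231) was lower at -0.98 ± 0.21. HSFB2B and HSP22.3 reached adjusted p of 0.0907 and 0.0646 when the fit held the compared groups alone. Of 22 genes for peroxidases, catalases and glutathione transferases, APX4 (LOC4346247) and GSTZ5 (LOC4332455) were lower, at -0.47 ± 0.12 and -0.62 ± 0.19, with adjusted p of up to 0.0821 and 0.134. The clock gene PRR1 (LOC4330000) was the single call among 6, at -0.42 ± 0.12, with an adjusted p of up to 0.129.

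Most of the differences at 48 h were not called before feeding. At 0 h, on other arrays, 460 probe sets (1.41%) were called, 282 (0.862%) higher and 178 (0.544%) lower, and by gene 1.08% were higher and 0.451% lower. Of the 2878 higher at 48 h, 81 (2.81%) were also higher at 0 h, which is 28.7% of the 0 h list. Of the 1571 lower at 48 h, 117 (7.45%) were also lower at 0 h, or 65.7% of that list. At 6 h, 282 probe sets (0.862%) and 0.805% of the genes were called, with 103 probe sets (0.315%) higher and 179 (0.547%) lower. They held 78 of the higher (2.71%) and 136 of the lower (8.66%), or 75.7% and 76.0% of the corresponding 6 h lists. The 0 h count rested on single arrays, at 225 and 272 without NIL-Bph6-RNAi replicates 2 and 3 and at 282, 850 and 233 without NIL-Bph6 replicates 1, 2 and 3. It was 5247 with array weights and 201 with RNA quality as a covariate. A difference not called at 0 h is therefore not shown to be absent. The 6 h count was 179 without NIL-Bph6 replicate 2.

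The cell cycle list had a median line difference of -0.11 at 0 h and 0.22 at 6 h, against 0.85 at 48 h, and the jasmonate list one of 0.05 and 0.12 against -0.47. The median level of the cell cycle genes was 8.83, 9.16 and 9.45 at 0, 6 and 48 h in NIL-Bph6 and 8.91, 8.90 and 8.40 in NIL-Bph6-RNAi. Tested directly, the line difference at 48 h differed from that at 0 h for 3676 probe sets (11.2%), 2337 (7.14%) upward and 1339 (4.09%) downward. By gene the share was 14.9%, with 9.56% upward and 5.36% downward, and 43 of 96 cell cycle genes were called upward. With median centring the split was 2174 and 1523, and the median over all probe sets was then -0.10. Dropping replicate 3 at 48 h left 1972 calls for NIL-Bph6 and 2056 for NIL-Bph6-RNAi. Dropping NIL-Bph6 replicate 3 at 0 h left 2181, and dropping NIL-Bph6-RNAi replicate 2 at 0 h left 1643. With RNA quality as a covariate there were 2110 calls. In the test with all arrays and no covariate, 6 of 29 jasmonate genes were called, all downward.

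**Figure D5:**
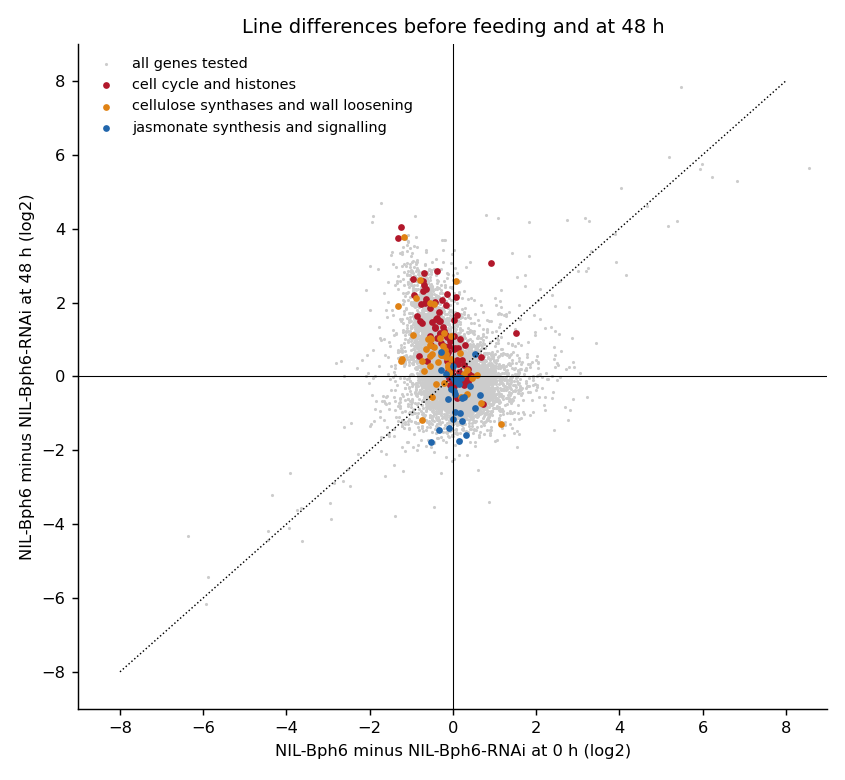
Line difference at 48 h (vertical axis, log2) against that at 0 h (horizontal axis, log2) for 16404 genes, with members of 3 lists in colour and a dotted line where both are equal. Most cell cycle genes, 79 of 96, lie above 0 at 48 h, with list medians of 0.85 at 48 h and -0.11 at 0 h, and a small set of genes far from 0 lies along the dotted line.

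The largest differences at 48 h were of another kind. Of 30 genes called with at least 16-fold at 48 h, 18 were also called at 0 h in the same direction. Among them, LOC4339505 differed by 5.76 at 48 h and 5.98 at 0 h, and LOC4340325 by -6.17 and -5.94. These loci have no gene symbol in the tables used here.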

How the data were processed

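Leaf sheath RNA was labelled by 3' IVT and measured on Affymetrix rice arrays, per the labels' protocols. The deposited values are log2 signals, and per the submitters' processing notes they were made with MAS5, with no version given. No source used here gives further steps. Read from the values, the linear signals had a mean of 500.067 to 500.079 on each array after trimming 2% at each end.

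The 123 control probe sets were left out, and of 57258 the 32732 with at least 3 arrays above the overall median of 5.78 were tested. In R 4.3.3, limma 3.58.1 fitted 6 group means over all 18 arrays with an intensity trend and Benjamini-Hochberg adjustment in each comparison. It was tested on simulated data with known changes, drawn with the same spread in all groups. The 48 h groups differ in spread for some genes, so the simulation cannot decide how reliable the calls here are. Genes came from the platform annotation, which gives exactly 1 gene for 22436 of 57381 probe sets, several for 95 and none for 34850. Symbols came from RefSeq (ASM3414082v1), used for names only. A gene was represented by its probe set with the highest mean. Signal shared between related genes was not tested, and no presence calls were used.

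Named genes were the 12 largest differences in each direction among called probe sets with 1 named gene, no overlap between the lines and a mean of at least 7 in the higher line. To these were added up to 4 called members of each list with the largest difference, or, where none was called, the member with the lowest p. A gene outside this rule is said to have been singled out after its value was seen, apart from families whose measured members are given together and unnamed loci. The comparison and the lists were chosen with earlier results of these data known, and list patterns were tightened after the annotation had been seen. Alternatives covered scaling, filters, an offset, the variance model, array weights, the groups in the fit, a replicate block, RNA quality, a 2-fold minimum and leaving out arrays. Where the text says in how many alternatives a call ended, the 2-fold minimum is not counted. Counts within lists under alternatives were added after the data had been seen. Python 3.11.15, pandas 2.3.3, numpy 2.4.6 and matplotlib 3.10.9 were used for lists and figures.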

Additional observations from a re-analysis of the deposited data

Results flagged for a closer look

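The line difference at 48 h differed from that at 0 h, by limma's test of the difference itself, for 3676 probe sets and for 63 of the named genes. Values below are that difference of differences on the log2 scale, each with an adjusted p under 0.05. They rest on the same 48 h arrays as the report and also on the 0 h arrays. Part of a value can thus come from a line difference at 0 h, called or not. Among cell division and growth genes the difference of differences was 5.28 for KIN10A, 5.06 for CYCB2-2, 3.61 for CYCB1-1, 3.49 for ORC1, 3.24 for CYCD3-2 and 2.15 for H2B.10. Growth-regulating factors had 3.90 for GRF10, 3.41 for GRF6, 3.14 for GRF7 and 1.57 for GRF4. Tubulins had 2.0 for TUB2, 1.93 for TUB6, 1.59 for TUB4 and 1.56 for TUB1. Wall genes had 4.50 for GLU12, 3.41 for EXPB17, 3.01 for BC1L2, 2.50 for EXPA6 and 1.51 for LAC3.

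A positive value need not be a rise over time. The mean of BURP2 went from 14.07 at 0 h to 13.66 at 48 h in NIL-Bph6, and from 13.99 to 10.86 in NIL-Bph6-RNAi. For other named genes the difference of differences was 6.25 for C3H23, 3.56 for BGLU8, 3.34 for GRXC3, 2.93 for PRX74 and 2.71 for BURP2. For sugar genes it was 3.15 for SWEET11 and 2.10 for SUS1. For hormone genes it was 3.07 for IAA14, 2.94 for GH3.9, 1.18 for ABA8OX2, 1.13 for RR4 and 0.71 for SLR1. Defence and signalling genes had 2.53 for GER8, 2.31 for GER4, 2.12 for CIPK6, 1.74 for LYP4 and 1.46 for CPK3. Of the rest, HSFB2B had 3.12, HSFB4B 2.0, NRAMP5 1.57, HSP16.9B 1.47 and PORA 1.41.

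Downward, jasmonate and salicylate genes had -1.88 for JAZ5, -1.32 for AOS2, -1.13 for NH1, -1.06 for NH3 and -0.81 for NH2. The germin-like gene GLP2 had -2.28. ERF24, which was not called at 48 h itself, had -2.98. Its line difference was 2.19 at 0 h, not called (limma adjusted p = 0.0887), and -0.78 at 48 h. Hormone genes had -1.62 for IAA6, -1.51 for LOG, -1.10 for GA20OX3, -0.54 for PYL11 and -0.53 for GID1. Nutrient and metal genes had -1.30 for HAK16, -1.30 for ZIP8, -1.13 for NIA1, -1.05 for HAK7 and -0.89 for YSL16. NAC6 had -1.52, GSTZ5 -0.87, APX4 -0.70, NYC1 -0.66 and PRR1 -0.60.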

How the results depend on the processing

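Apart from leaving out single arrays, the number of probe sets called at 48 h stayed within 1.5 times of 4449 except when the fit held the compared groups alone (2808) and a 2-fold minimum (2240), which by construction calls fewer. Without 1 array it was 2585 to 3983, and it fell by over 1.5 times without NIL-Bph6 replicate 1 or 3 or NIL-Bph6-RNAi replicate 3. At 0 h the count went from 460 to 5247 with array weights, which gave 1 array of NIL-Bph6 a weight of 8.14, to 289 with only the compared groups and to 201 with RNA quality as a covariate, and was 225 to 850 without 1 array. At 6 h it went from 282 to 727 with array weights, and was 179 to 233 without 1 array. For the 48 h minus 0 h difference it went from 3676 to 6634 with array weights and 2110 with the RNA quality covariate, and was 1643 to 4745 without 1 array. The cause of these changes was not tested further. With the replicate block the 4 counts were 4415, 448, 261 and 3872. The block was not used because numbers did not pair the lines: deviations of same-numbered arrays at 48 h correlated at -0.168, -0.252 and -0.149. Of 95 named genes called, 38 kept their call and 95 their sign under all alternatives run for them. Here the 2-fold minimum is counted, under which 35 calls ended by construction. MADS58, never called, lay between -0.02 and 0.48 without 1 array, the former without NIL-Bph6 48 h replicate 2. In 24 of 36 lists the number of calls moved by over 1.5 times without 1 array. Of 360 list medians under alternatives, 20 changed sign. Values near or under the overall median of 5.78 are imprecise.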
